A study of Mus musculus with 3 samples.

Results

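The genes described here build and service the cilium. They are all genes whose symbol begins with Dnah, Dnai, Dnaic, Rsph, Tekt, Bbs or Ift followed by a digit, together with Foxj1, Rfx3 and Tppp3. Of 54 such genes in the RefSeq gene table, 43 were matched by an array probe with a single gene symbol, among 17349 genes with a probe. They comprised 8 Dnah, 2 Dnaic, 5 Rsph, 4 Tekt, 14 Ift and 7 Bbs genes and the 3 named singly. RNA came from C57BL/6 mice aged 6 to 8 weeks, from the mucosa that lines the nasal cavity and sinuses.

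One group was CC10 knockout mice in which allergic eosinophilic chronic rhinosinusitis had been induced (ECRS_KO), one was wild-type mice with the same disease (ECRS_WT), and one was wild-type mice without it (control_WT). CC10 is the club cell secretory protein encoded by Scgb1a1. Each group is 1 Illumina bead array that received the pooled RNA of 5 mice. No difference below therefore has a replicate error or a p-value, and precision is limited by the single array of each group.

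Arrays are named by their labels, because the targeted gene did not bear them out. The signal of Scgb1a1 was 597 on the ECRS_KO-labelled array, 493 on that labelled ECRS_WT and 3.32, not detected, on that labelled control_WT. A probe outside the deleted part of the gene would not check the knockout label, and the place of this probe is not known here. The arrays also differed in brightness, with mean signals of 465, 373 and 295 in the same order of labels, and 12508, 11992 and 11428 of 35226 probes were detected. Values below are therefore normalised signals, which are background-corrected and put on a common scale across the arrays. They include an offset of 16 and are not comparable between probes.

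A motile cilium is a microtubule axoneme that beats through dynein motors, and cilia on the respiratory epithelium of the nose move mucus. Dnah and Dnaic genes encode heavy and intermediate chains of axonemal dyneins, Rsph genes encode radial spoke proteins that regulate the beat, and tektins are filaments inside the doublet microtubules. Ift proteins form trains that carry cargo along the axoneme during assembly, and the BBSome, built from Bbs proteins, links membrane proteins to those trains. The transport proteins serve immotile cilia too, including the long cilia on which olfactory neurons hold their odorant receptors. Foxj1 and Rfx3 are transcription factors of ciliogenesis, and RFX proteins bind an element of ciliary promoters called the X-box.

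The promoters of these genes are shown first because they carry a feature that the choice of genes did not use. RefSeq promoter windows (assembly GRCm38.p6, 250 bases before to 50 bases after the transcription start) were available for 36 of the 43 genes, as 39 windows. The X-box was searched on both strands as GTNNCC and GGNAAC separated by any 2 bases, and 6 of the 39 windows (15.4%) held it, against 1.29% of all 32851 windows. By family, 5 of 18 windows of Ift and Bbs genes (27.8%) and 1 of 20 windows of Dnah, Dnaic, Rsph and Tekt genes (5%) held it. The 6 windows follow, written 5′ to 3′ on the strand of the gene, with the matching bases in capitals.
Bbs1, chr19:4906578-4906877, minus strand: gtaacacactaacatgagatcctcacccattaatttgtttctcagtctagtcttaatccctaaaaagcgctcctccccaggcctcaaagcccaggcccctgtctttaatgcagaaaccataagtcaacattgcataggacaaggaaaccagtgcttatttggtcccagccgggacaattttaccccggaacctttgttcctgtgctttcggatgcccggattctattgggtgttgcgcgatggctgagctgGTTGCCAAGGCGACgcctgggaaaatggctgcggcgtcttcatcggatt
Bbs4, chr9:59353459-59353758, minus strand: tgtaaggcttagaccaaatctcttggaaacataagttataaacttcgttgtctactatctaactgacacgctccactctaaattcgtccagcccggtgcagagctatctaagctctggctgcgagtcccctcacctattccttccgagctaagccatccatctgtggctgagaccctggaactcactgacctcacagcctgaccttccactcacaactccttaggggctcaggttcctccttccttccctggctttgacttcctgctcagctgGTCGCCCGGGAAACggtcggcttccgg
Bbs7, chr3:36613340-36613639, minus strand: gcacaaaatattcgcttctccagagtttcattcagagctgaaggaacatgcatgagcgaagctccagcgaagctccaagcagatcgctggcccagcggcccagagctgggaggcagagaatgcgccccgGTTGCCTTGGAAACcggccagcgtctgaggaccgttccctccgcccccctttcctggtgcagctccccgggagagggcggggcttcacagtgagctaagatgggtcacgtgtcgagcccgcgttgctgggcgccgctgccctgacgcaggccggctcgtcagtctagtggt
Ift22, chr5:136907900-136908199, plus strand: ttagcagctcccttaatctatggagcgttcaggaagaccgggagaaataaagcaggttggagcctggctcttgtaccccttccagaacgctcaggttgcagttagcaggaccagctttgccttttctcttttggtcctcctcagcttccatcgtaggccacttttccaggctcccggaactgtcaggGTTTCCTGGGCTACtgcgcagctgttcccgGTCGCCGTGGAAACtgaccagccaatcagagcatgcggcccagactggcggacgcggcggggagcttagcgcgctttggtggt
Ift57, chr16:49699044-49699343, plus strand: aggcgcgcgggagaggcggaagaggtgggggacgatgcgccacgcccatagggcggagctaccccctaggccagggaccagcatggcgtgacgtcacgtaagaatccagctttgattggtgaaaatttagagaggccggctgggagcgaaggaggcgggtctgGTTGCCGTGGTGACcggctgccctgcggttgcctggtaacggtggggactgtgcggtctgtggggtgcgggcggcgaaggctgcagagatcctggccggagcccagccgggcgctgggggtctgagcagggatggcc
Tekt4, chr17:25471340-25471639, plus strand: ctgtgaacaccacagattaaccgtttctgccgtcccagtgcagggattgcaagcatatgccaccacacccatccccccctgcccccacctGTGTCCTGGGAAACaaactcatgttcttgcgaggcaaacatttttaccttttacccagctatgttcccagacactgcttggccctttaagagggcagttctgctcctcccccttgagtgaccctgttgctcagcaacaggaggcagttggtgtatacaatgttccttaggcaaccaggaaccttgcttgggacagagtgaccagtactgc
The match began 121 bases before the start in Bbs7, 87 in Ift57 and 160 in Tekt4, and Ift22 had a pair of matches, 63 and 33 bases before the start. In Bbs1 and Bbs4 it lay past the start, by 1 and 23 bases.

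A single arm of the element, GTTGCC, which can lie inside the full element, was present in 16 of the 39 windows (41.0%), against 12.5% of all windows. Of these 16 windows, 4 also held the full element. A forkhead core, GTAAACA on either strand, was found in 2 windows (5.13%), those of Dnah17 and Tekt3, against 3.65% of all windows. A match describes these letters in this window and does not show binding.

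**Figure D1:**
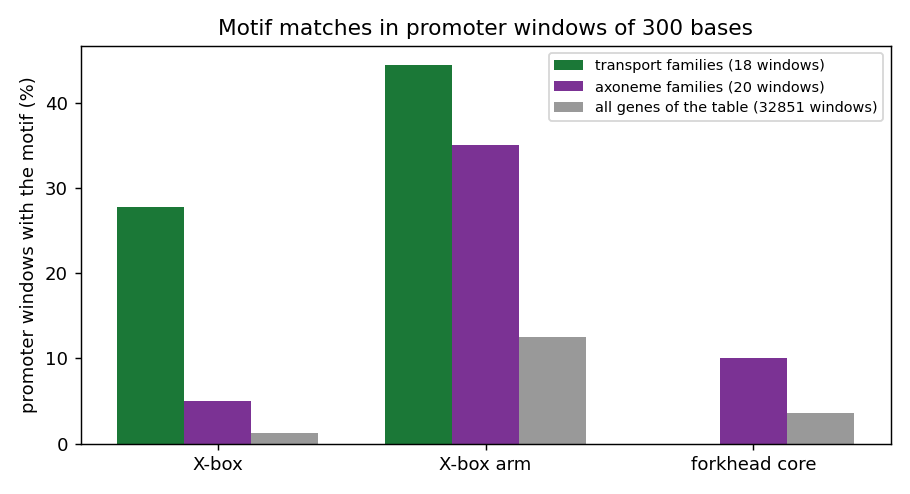
Bars give the percentage of promoter windows of 300 bases that hold each motif on either strand, for Ift and Bbs genes (transport families, 18 windows), Dnah, Dnaic, Rsph and Tekt genes (axoneme families, 20 windows) and all genes of the RefSeq table (32851 windows). The full X-box was present in 27.8% of transport windows, 5% of axoneme windows and 1.29% of all windows.

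The markers Rsph1, Tekt1 and Tppp3, genes of ciliated cells, were detected on all 3 arrays. They are members by their symbols, so their detection does not check the label of the set. In all, 30 of the 43 genes were detected on every array, 4 on 1 or 2 arrays and 9 on none, where a probe was taken as detected at a detection p-value under 0.01. The 9 were Bbs9, Dnah2, Dnah7b, Dnah9, Dnah17, Ift57, Ift80, Ift140 and Rsph6a. They fell into 2 kinds, since Dnah7b, Dnah9, Dnah17 and Rsph6a had signals under 30 on every array, whereas the other 5 had signals over 30 on every array without passing detection. Ift140, for example, had signals before normalisation of 360 on the ECRS_KO-labelled array, 226 on that labelled ECRS_WT and 193 on that labelled control_WT, with detection p-values of 0.159, 0.340 and 0.119. Bright probes without detection were common on these arrays: 454, 360 and 330 exceeded a signal of 500 and still failed it, in that order of labels. These 9 genes have no fold below.

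**Figure D2:**
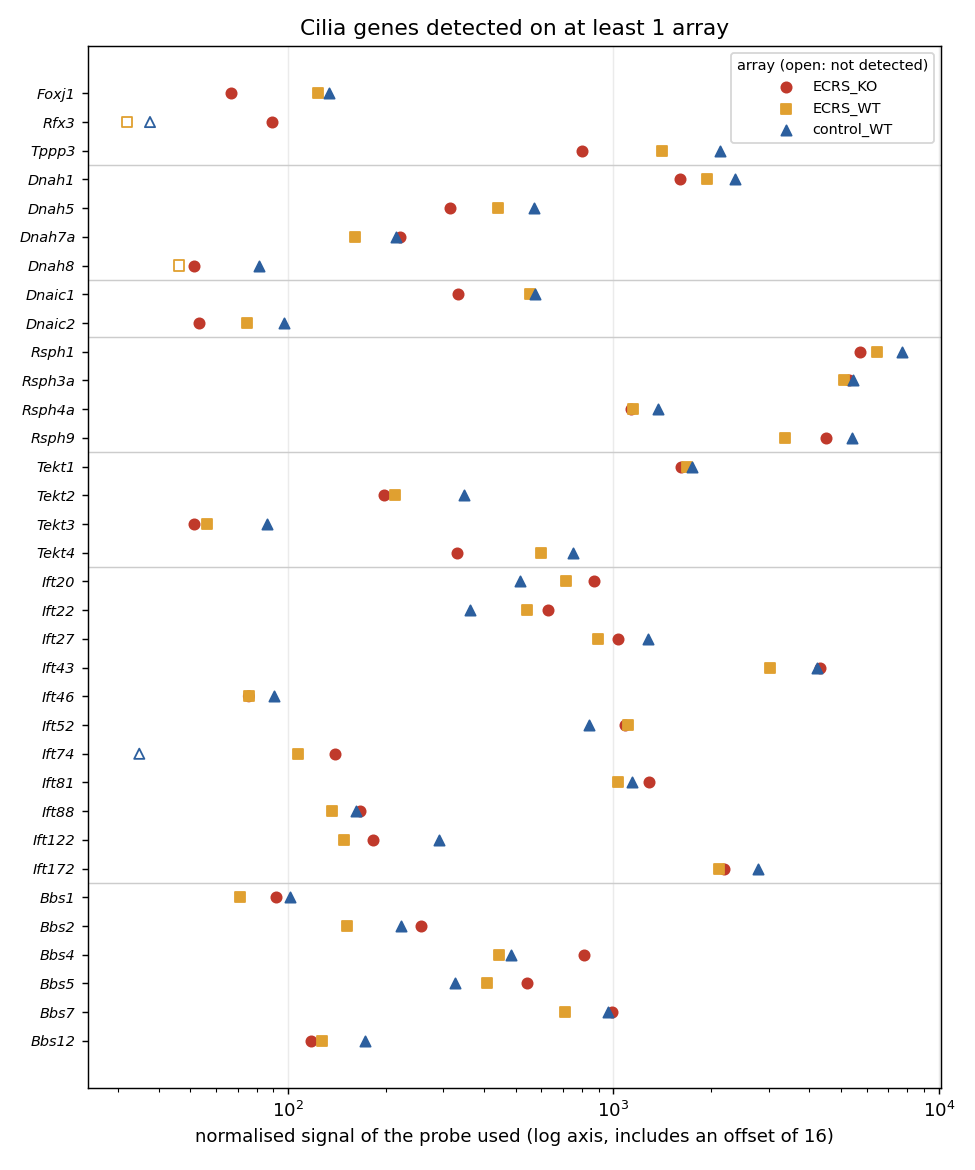
Normalised signal (log axis) of the probe used for each of the 34 cilia genes detected on at least 1 array, with 1 symbol for each of the arrays labelled ECRS_KO, ECRS_WT and control_WT and open symbols where the probe was not detected. Foxj1, Tppp3, Dnaic1 and Tekt4 had their lowest value on the ECRS_KO-labelled array, and Bbs4 and Ift20 their highest; the Ift46 symbol of ECRS_KO (75.7, not detected) lies under that of ECRS_WT (76.0).

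By their labels, the ECRS_KO and ECRS_WT arrays compare CC10 knockout with wild-type mice under the same disease, although Scgb1a1 was detected on both. Most transport genes were slightly higher on the ECRS_KO-labelled array, and more axoneme genes were lower than higher. Markers of olfactory sensory neurons, described further on, were also higher, with a median of 1.89 on the log2 scale. Of 17 measured Ift and Bbs genes, 14 were above and 3 below 0, with a median log2 difference of 0.29. Of 14 measured Dnah, Dnaic, Rsph and Tekt genes, 4 were above and 10 below 0, with a median of -0.13, which was 0.04 under median scaling. Over all 8919 genes measured the median was -0.03 and 45.0% lay above 0. Genes count as measured in a comparison if at least 1 of its 2 arrays detected the probe.

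Few of these differences were large. Among the 34 measured cilia genes, 1 passed 2-fold upward on the ECRS_KO-labelled array and none downward, against 4.72% and 2.35% of all measured genes. At 1.5-fold, 3 were higher and 4 lower, against 9.56% and 8.78% of all genes. Over 491 genes with several probes, the log2 differences of probes of the same gene scattered with a pooled SD of 0.29 in this comparison, so many of the differences between these arrays are no larger than the disagreement between probes of a single gene.

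The regulators differed in opposite directions. Foxj1, which commits cells to motile cilia, had normalised signals of 66.9 on the ECRS_KO-labelled array, 123 on that labelled ECRS_WT and 133 on that labelled control_WT. It was thus 1.84-fold lower on the ECRS_KO-labelled array than on that labelled ECRS_WT, while the arrays labelled ECRS_WT and control_WT lay close together. With limma's default background inference the log2 difference was -0.09, against -0.88 here. That inference put the background SD at 361, 356 and 260 in the same order of labels, against 16.9, 13.7 and 9.23 here. The signals of Foxj1 before normalisation (69.8, 102 and 66.2) lay below it, so this setting is a weak check for dim probes.

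Rfx3, the X-box binding factor, went the other way. Its normalised signal was 89.1 on the ECRS_KO-labelled array, against 31.9 and 37.6 on those labelled ECRS_WT and control_WT, where it was not detected. It was at least 2.68-fold higher on the ECRS_KO-labelled array than on that labelled ECRS_WT, a bound that sets the dimmer array at no less than its faintest detected probe. This was the 1 gene past 2-fold, and its log2 difference was 0.09 with limma's default background inference and 0.51 with the authors' normalized values, against 1.42 here.

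Tppp3, which promotes tubulin polymerisation, had normalised signals of 799.8 on the ECRS_KO-labelled array, 1406 on that labelled ECRS_WT and 2133 on that labelled control_WT. It was 1.76-fold lower on the ECRS_KO-labelled array than on that labelled ECRS_WT. Its value was lowest on the ECRS_KO-labelled array and highest on that labelled control_WT. The log2 difference was -1.08, past 2-fold, with limma's default background inference, against -0.81 here.

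Among the axonemal dyneins, the intermediate chains were lower and the heavy chains mixed on the ECRS_KO-labelled array. Dnaic1, an outer arm intermediate chain, had normalised signals of 333 on the ECRS_KO-labelled array, 555 on that labelled ECRS_WT and 575 on that labelled control_WT, and was 1.67-fold lower on the first than on the second. Dnaic2, its partner in the outer arm, had 53.3, 74.5 and 96.9 in that order and was 1.40-fold lower. By the probes used, both chains were lowest on the ECRS_KO-labelled array. The other Dnaic2 probe, not detected on any array, had 67.6, 80.7 and 35.8 in that order and was lowest on the control_WT-labelled array. Of the 4 heavy chains measured, Dnah5 of the outer arm, with 315, 441 and 571, was 1.40-fold lower and Dnah1 of the inner arm, with 1601, 1945 and 2364, was 1.21-fold lower. Both were lowest on the ECRS_KO-labelled array and highest on that labelled control_WT. Dnah7a, a further inner arm chain, was 1.38-fold higher, but its second detected probe differed by only 0.01 (log2), and Dnah7a has close paralogues that a probe may not separate.

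Radial spoke genes stayed near their level on the ECRS_WT-labelled array. Rsph1, a spoke head protein, had normalised signals of 5731, 6453 and 7724 on the arrays labelled ECRS_KO, ECRS_WT and control_WT, and was 1.13-fold lower on the first than on the second. Rsph3a and Rsph4a differed by 0.05 and -0.02 on the log2 scale, both with signs that change with the scaling. Rsph9, another spoke head protein, had 4501, 3358 and 5416 in that order and was 1.34-fold higher, with the ECRS_WT-labelled array the lowest of the 3.

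One tektin stood out among 4. Tekt4 had normalised signals of 330.1 on the ECRS_KO-labelled array, 598 on that labelled ECRS_WT and 749 on that labelled control_WT, and was 1.81-fold lower on the first than on the second. Tekt1, with 1616, 1687 and 1740.4, Tekt2, with 196, 213 and 348, and Tekt3, with 51.3, 56.3 and 86.4 in that order, were 1.04-fold, 1.08-fold and 1.10-fold lower. For Tekt1 and Tekt2 the sign turned under median scaling. With limma's default background inference the log2 difference was -0.53 for Tekt4, against -0.86 here, and -0.44 for Dnaic1, against -0.74.

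The 11 measured Ift genes ranged from -0.04 (Ift52) to 0.51 (Ift43) on the log2 scale, with a median of 0.29, and none reached 1.5-fold. Ift43, of the complex that runs retrograde transport, had normalised signals of 4327 on the ECRS_KO-labelled array, 3036 on that labelled ECRS_WT and 4213 on that labelled control_WT. Its level on the ECRS_KO-labelled array was 1.42-fold higher than on that labelled ECRS_WT and close to that on the control_WT-labelled array. Ift81, which binds tubulin cargo together with Ift74, was 1.25-fold higher and Ift88, which is needed for cilium assembly, 1.22-fold higher. Ift172 was 1.04-fold higher.

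The 6 measured Bbs genes had a median of 0.45, the highest of the 6 families. Bbs4, a BBSome subunit, had normalised signals of 810.2 on the ECRS_KO-labelled array, 444 on that labelled ECRS_WT and 483 on that labelled control_WT, and was 1.82-fold higher on the first than on the second. Bbs2, also a BBSome subunit, had 256, 152 and 222 in that order and was 1.69-fold higher. The ECRS_KO-labelled array was the brightest for both. Bbs2 differed by 0.17 (log2) with limma's default background inference, against 0.76 here. Bbs7, with 992, 711 and 962, was 1.40-fold higher, Bbs5, with 543, 408 and 325, 1.33-fold and Bbs1 1.29-fold. Bbs12, a chaperonin-like protein that assists BBSome assembly and is not part of it, was 1.08-fold lower, or higher under median scaling.

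**Figure D3:**
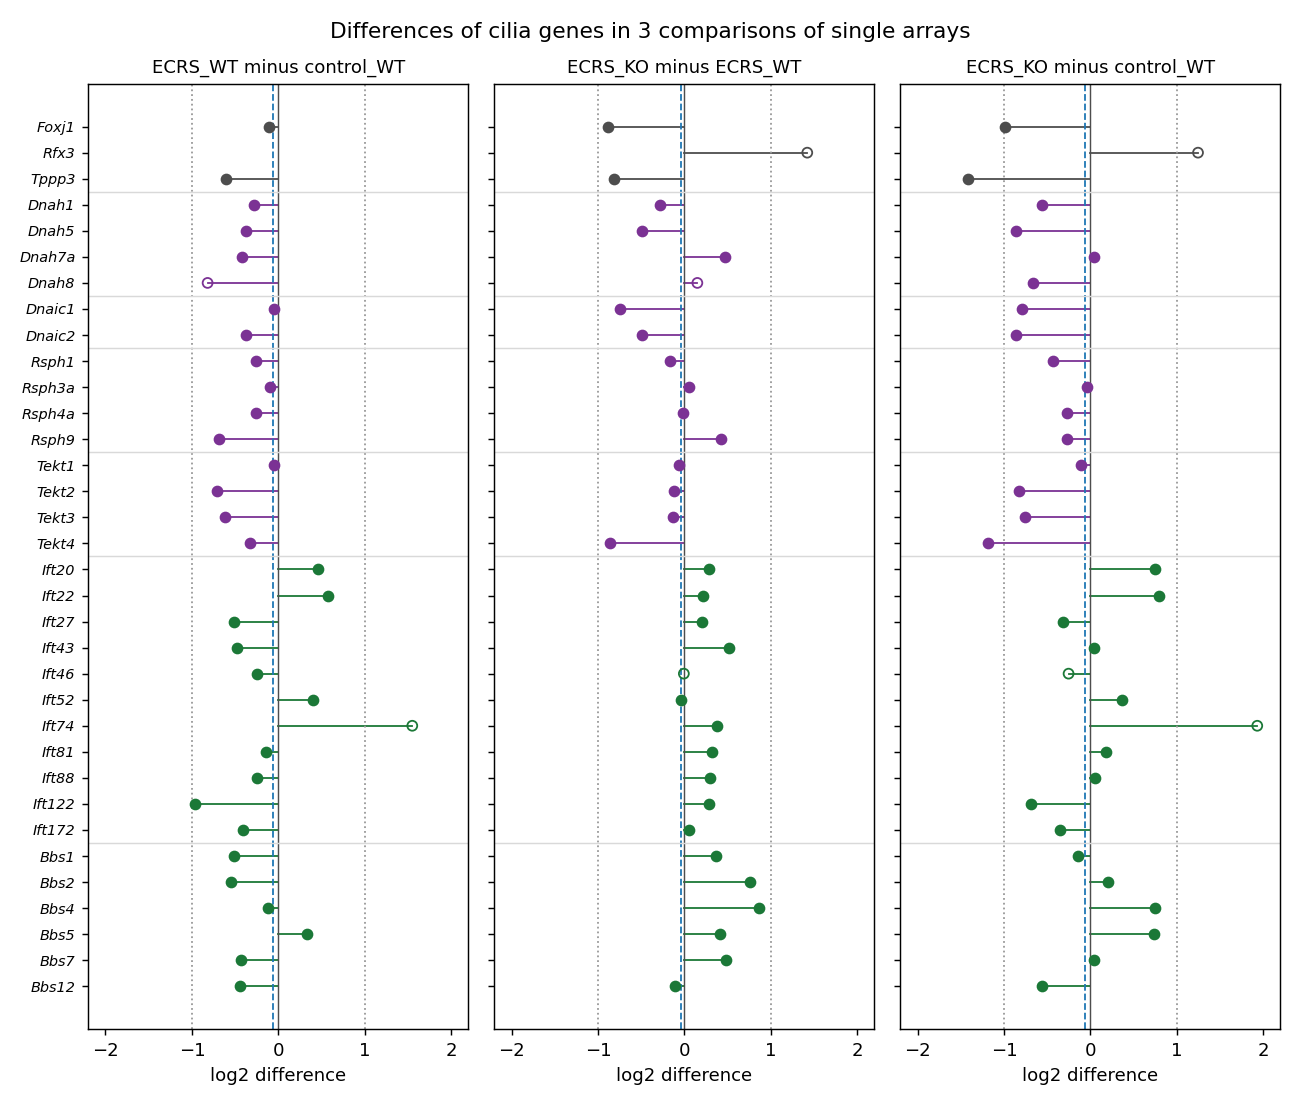
Log2 differences of the measured cilia genes in the 3 comparisons, with grey for Foxj1, Rfx3 and Tppp3, purple for the axoneme families and green for the transport families. Open circles mark genes detected on 1 of the 2 arrays, dotted lines mark 2-fold, and the dashed line is the median of all measured genes. In the middle panel 14 of 17 transport genes lie to the right of 0 and 10 of 14 axoneme genes to the left.

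Partners of these genes outside the named families included some larger differences. Of 9 measured motors, adaptors and other transport particle genes, 2 passed 2-fold and 5 passed 1.5-fold upward on the ECRS_KO-labelled array, none passed 1.5-fold downward, and the median was 0.66. Kif3c, a kinesin-2 motor subunit, was 2.11-fold higher, Ttc8, which encodes the BBSome subunit BBS8, 2.03-fold, and Kifap3, the adaptor of the kinesin-2 motor, at least 1.89-fold. With limma's default background inference none of the 9 reached 2-fold and the median was 0.20, and with the authors' values 1 did. All 11 measured genes of dynein arm docking, assembly and light chains lay within 1.5-fold, with a median of -0.01. Dynlrb2, a dynein light chain of ciliated cells, and Dnaaf1, a dynein assembly factor, were each 1.16-fold lower.

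The remaining axonemal and ciliated cell lists had medians below 0 in this comparison. Of 11 measured genes of the central apparatus and microtubule inner proteins (median -0.03), Cfap45 and Cfap52, proteins inside the doublet microtubules, were 1.56-fold and 1.54-fold lower. At least 2.36-fold higher was the tubulin gene Tuba1a. Of 6 measured multiciliation regulators (median -0.21), Trp73, a transcription factor upstream of Foxj1, was 1.67-fold lower. Of 12 measured ciliated cell genes outside the families (median -0.17), Capsl was 2.01-fold lower and Sec14l3 1.82-fold higher. No gene of this list was 2-fold lower with limma's default inference, median scaling, the shift on detected probes or the authors' normalized values. Tuba1a's list likewise had 0 genes past 2-fold upward with limma's default inference and the authors' values.

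Markers of olfactory sensory neurons moved with this comparison. All 9 were measured and 8 passed 2-fold upward on the ECRS_KO-labelled array, with a median log2 difference of 1.89 and a range from 0.15 (Omp, the olfactory marker protein) to 2.41 (Rtp2). Their summed signal before normalisation was 72940 on the ECRS_KO-labelled array, 28160 on that labelled ECRS_WT and 24607 on that labelled control_WT. Such sums keep the brightness of each array, and those of the axoneme families were 27007, 21418 and 20568 in that order. Of the 9 olfactory markers, 9, 9 and 6 were detected. Gnal, Rtp1 and Rtp2 were the 3 not detected on the control_WT-labelled array. The part of these neurons in the values of the transport families and the motors was not tested. In pooled tissue, fewer cells of a type and less RNA per cell cannot be told apart. Of 3 measured basal cell markers none was at least 2-fold apart (median -0.41), with Krt5 1.76-fold lower, and 3 club and secretory cell markers had a median of -0.05. A pair of measured markers of sustentacular cells, the support cells of the olfactory epithelium, had a median of 0.48, and 4 measured reference genes one of -0.09.

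**Figure D4:**
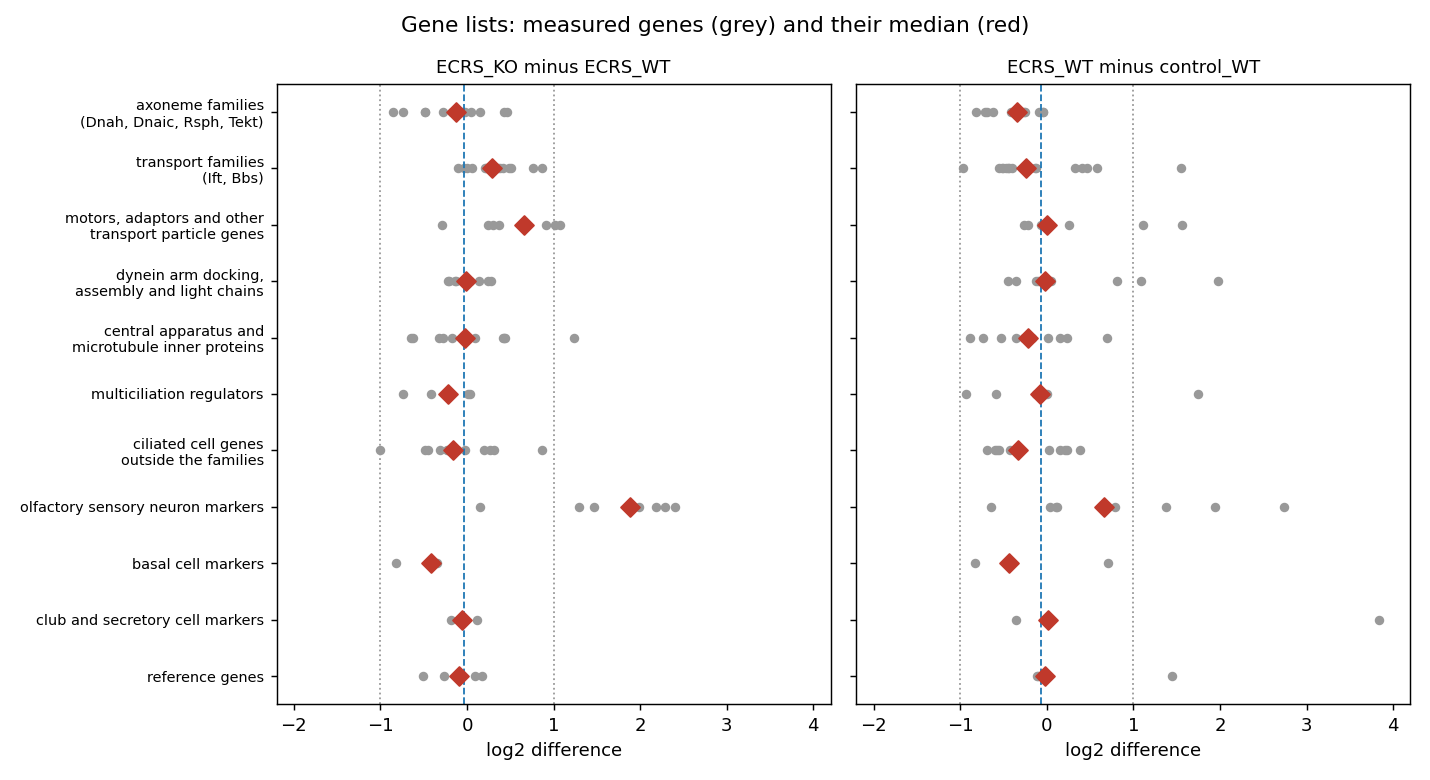
Log2 differences of measured genes (grey points) and their median (red diamond) for the cilia families and other lists, with ECRS_KO minus ECRS_WT on the left and ECRS_WT minus control_WT on the right. Dotted lines mark 2-fold and the dashed line the median of all measured genes. On the left, the medians are 1.89 for olfactory neuron markers, 0.66 for motors and adaptors, 0.29 for the transport families and -0.13 for the axoneme families.

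The comparison of the arrays labelled ECRS_WT and control_WT addresses, by its labels, the effect of the disease in wild-type mice, and it shares the ECRS_WT-labelled array with the comparison above. Most cilia genes were slightly lower on the ECRS_WT-labelled array. Of 33 measured genes, 28 were below and 5 above 0, with a median log2 difference of -0.33 against -0.07 over all 8766 genes measured, of which 40.9% lay above 0. Medians were -0.35 for the axoneme families, with 14 of 14 genes below 0, and -0.25 for the transport families, with 12 of 17 below 0. These counts depend on the setting. Under median scaling the 2 medians were -0.14 and -0.0054. There Dnaic1 (0.19), Tekt1 (0.07), Bbs4 (0.12), Ift46 (0.03) and Ift88 (0.08) lay above 0. With the mean over the probes of a gene, Dnaic2 (0.40) and Dnah5 (0.0008) did. Upward, 1 gene passed 2-fold and downward none, against 3.76% and 1.4% of all measured genes. At 1.5-fold, 1 was higher and 6 were lower, against 9.82% and 10.8% of all genes. The pooled SD between probes of the same gene was 0.50 here (370 genes). It describes the scatter of single probes and is not an error of a median over several genes.

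The 6 genes past 1.5-fold downward came from several families. Ift122, of the retrograde transport complex, had normalised signals of 149 on the ECRS_WT-labelled array and 292 on that labelled control_WT and was 1.96-fold lower; it had 182 on that labelled ECRS_KO. Tekt2 was 1.64-fold, Rsph9 1.61-fold, Tekt3 1.53-fold and Tppp3 1.52-fold lower. Dnah8, a heavy chain known best from sperm flagella, was at least 1.76-fold lower, with 46.2 and no detection on the ECRS_WT-labelled array and 81.5 on that labelled control_WT. The calls of Ift122, Dnah8, Tekt2 and Tekt3 ended with limma's default background inference, at log2 differences of -0.24, -0.05, -0.24 and -0.05, against -0.97, -0.82, -0.71 and -0.62 here. Median scaling ended those of Dnah8 (-0.54), Tekt2 (-0.47), Tekt3 (-0.33) and Tppp3 (-0.49), and the authors' values those of Dnah8 (-0.31) and Tekt3 (-0.25). Foxj1 itself was 1.08-fold lower, with the opposite sign under median scaling.

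Ift74 was the gene past 2-fold. Its normalised signal was 107 on the ECRS_WT-labelled array, against 34.9 on that labelled control_WT, where it was not detected, so that it was at least 2.93-fold higher. A second probe, also not detected on the control_WT-labelled array, differed by at least 1.30 on the log2 scale, and the remaining probe was not detected on any array. With limma's default background inference the difference was 0.11 (log2) and with the authors' normalized values 0.56, against 1.55 here. Ift22 (1.49-fold), Ift20 (1.38-fold), Ift52 (1.32-fold) and Bbs5 (1.26-fold) were the other 4 genes above 0. Ift20 links the trains to the Golgi, and Ift22, Ift52 and Ift74 belong to the anterograde complex as Ift20 does.

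Among partner genes, some axonemal and transport genes were higher on the ECRS_WT-labelled array. Drc1, of the complex that links neighbouring microtubule doublets, was higher by at least 3.95-fold, its partner Drc7 by at least 2.13-fold, and Ccdc40, which sets the spacing of that complex and the inner arms, by 1.75-fold. The median of the 10 measured genes of their list was -0.02. Traf3ip1, which encodes the transport protein IFT54, was at least 2.95-fold higher and Cluap1, encoding IFT38, 2.15-fold higher, among 7 measured motor, adaptor and particle genes with a median of 0.00. Of 6 multiciliation regulators (median -0.08), Ccdc78 was 3.35-fold higher, Foxn4 was 1.91-fold lower and Ccno just over 1.5-fold lower. Of 12 measured genes of the central apparatus and microtubule inner proteins (median -0.22), Efhc2 was 1.62-fold higher, Tuba1a at least 1.85-fold and Hydin at least 1.66-fold lower. Of 12 ciliated cell genes outside the families (median -0.33), Ccdc113 was 1.62-fold and Mlf1 1.51-fold lower. At 2-fold, 0 genes of the docking, motor and regulator lists were higher with limma's default inference or with the authors' values, against 2, 2 and 1 here. Olfactory neuron markers had a median of 0.66, with 3 of 9 past 2-fold upward, and the measured sustentacular pair one of 2.07. With limma's default inference the olfactory median was 0.16 and 1 of 9 passed 2-fold, and with the authors' values 0.37 and 2 of 9. Their part in these differences was not tested. The medians were -0.44 for 3 basal cell markers, 0.01 for 3 club and secretory cell markers and -0.02 for 6 reference genes. Single genes of these lists differed more. The reference gene Gusb was 2.73-fold and Scgb1a1 at least 14.3-fold higher on the ECRS_WT-labelled array. Of the basal cell markers, Krt5 was 1.63-fold higher and Krt15 1.78-fold lower.

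The arrays labelled ECRS_KO and control_WT differ by label in both disease and genotype, and each also enters a comparison above. The median log2 difference was 0.05 for 17 measured transport genes, with 11 above 0, and -0.62 for 14 measured axoneme genes, with 13 below 0. The median of all 34 measured cilia genes was -0.26, against -0.07 over 9085 genes, of which 42.4% lay above 0, and was 0.013 under median scaling. At 2-fold, 2 genes were higher and 2 lower, against 6.91% and 5.66% of all genes. At 1.5-fold the counts were 6 and 10, against 15% and 19.6%. The pooled SD between probes of the same gene was 0.58 on the log2 scale here (365 genes), the largest of the 3 comparisons. Median scaling turned the counts at 2-fold to 6 higher and 1 lower, and those over all genes to 1278 and 129, from 628 and 514. Beside these values, olfactory neuron markers had a median of 2.29, with 7 of 9 past 2-fold upward, and the 9 measured motors, adaptors and particle genes one of 0.62. The part of these neurons in the family medians was not tested.

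The genes past 2-fold were Ift74 (139 on the ECRS_KO-labelled array, at least 3.81-fold higher), Rfx3 (at least 2.37-fold higher), Tppp3 (2.67-fold lower) and Tekt4 (2.27-fold lower). The calls of Ift74, Rfx3 and Tekt4 ended with limma's default background inference, at log2 differences of 0.16, 0.08 and -0.85, against 1.93, 1.25 and -1.18 here. Those of Ift74 (0.74) and Rfx3 (0.43) ended with the authors' values, that of Ift74 (0.997) with the mean over its probes and that of Tekt4 (-0.79) under median scaling. Tppp3 stayed past 2-fold in these settings. Foxj1 was 1.99-fold lower on the ECRS_KO-labelled array than on that labelled control_WT. Dnah5 had normalised signals of 315 and 571 on these arrays and was 1.82-fold lower. Dnaic2 had 53.3 and 96.9 and was also 1.82-fold lower, although the mean over its probes, of which the second was not detected, differed by 0.03 (log2). Tekt2 was 1.77-fold, Dnaic1 1.73-fold, Tekt3 1.68-fold, and Ift122 1.60-fold lower. Dnah8, with 51.3 on the ECRS_KO-labelled array, was 1.59-fold lower. The log2 difference was -0.10 for Foxj1 with limma's default background inference, against -0.99 here, and -0.07 for Dnaic2, against -0.86. The calls at 1.5-fold of Dnah5 (-0.50), Dnaic1 (-0.48), Tekt2 (-0.27), Ift122 (-0.19), Tekt3 (-0.05) and Dnah8 (-0.05) also ended with that inference. Median scaling ended those of Foxj1 (-0.47), Dnah5 (-0.43), Dnaic2 (-0.41), Dnaic1 (-0.35), Tekt2 (-0.34), Tekt3 (-0.34), Dnah8 (-0.27) and Ift122 (-0.18).

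The other 4 genes, all of transport, completed the higher side at 1.5-fold. Ift22 had normalised signals of 629 on the ECRS_KO-labelled array, 541 on that labelled ECRS_WT and 363 on that labelled control_WT and was 1.73-fold higher. Ift20 (872, 713 and 518) was 1.68-fold, Bbs4 1.68-fold and Bbs5 1.67-fold higher. With limma's default background inference the calls of Ift22 (log2 difference 0.53) and Bbs5 (0.43) ended, and those of Ift20 (0.74) and Bbs4 (0.68) stayed. Windows of Ift22 and Bbs4 are among the promoters with an X-box printed above, as is that of Tekt4, which was lower. Bbs7 and Bbs1, whose windows also held it, had log2 differences of 0.04 and -0.15. A link between the element and these differences was not tested.

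The gap between the transport and axoneme medians kept its sign in each setting run for ECRS_KO minus ECRS_WT. There it was 0.42 on the log2 scale as reported, and lay between 0.20 (limma's default background inference) and 0.48 (median scaling) under the other settings. Between the arrays labelled ECRS_WT and control_WT the gap was 0.10 and changed sign without a detection filter (-0.03) and with probes detected on all 3 arrays (-0.08).

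**Figure D5:**
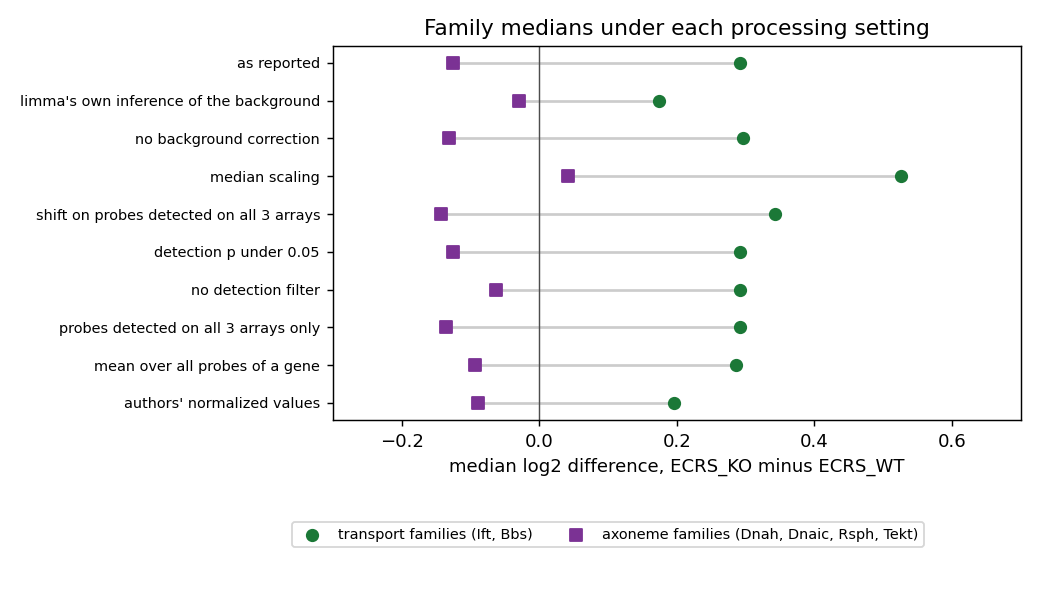
Median log2 difference, ECRS_KO minus ECRS_WT, of measured transport genes (green circles) and axoneme genes (purple squares) under each processing setting. The transport median lies between 0.17 and 0.53 and the axoneme median between -0.14 and 0.04, and the first is the higher in each setting shown.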

How the data were processed

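Per the file headers, the deposited table of 35226 probes lists signal intensity with its detection p-value for 3 arrays, not yet normalized, and the series table holds intensity normalized by the authors on a linear scale by a method not given in the sources used here. BeadStudio is named in the submitters' processing notes. Background was corrected by normexp in limma 3.58.1 (R 4.3.3), taking the negative controls' mean and SD from medians of signal over 100 detection p-value bins. limma's default inference is an alternative. Its background SDs were 260 to 361, against 9.23 to 16.9 here, so it is a weak check for probes dimmer than that. An offset of 16 was added and the arrays were quantile normalized and put on the log2 scale. Of several probes of a gene, the one with the highest mean signal was used, and gene names came from 20571 probes with 1 symbol.

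A gene was called at 2-fold or 1.5-fold when detected on the brighter array. A fold against an array without detection is a lower bound. Where the array without detection was the brighter, the difference was set to 0 and the gene still counted as measured. No gene of the cilia set was treated so, but some genes of the other lists were, such as Dnaaf2. With 1 array per group no test was possible. The gene families and the 10 other lists (131 names, 110 with a probe) were chosen with earlier results of these data known. Genes were named by rule: Scgb1a1, the markers, Foxj1, Tppp3, Rfx3, members at 1.5-fold or more in any comparison and the brightest of each family. Further members are given as examples. Of the partner and ciliated cell lists, the 3 largest at 1.5-fold or more or otherwise the 2 brightest were named in comparisons with ECRS_WT. The other lists are given by medians and counts, with some genes as examples. For ECRS_KO against control_WT no gene of a list is named, and only the olfactory and motor lists are summarised. The procedure was also run on simulated copies of 1 array. These do not test arrays of unequal brightness or bright probes without detection. In all, 11 alternatives were planned. Python 3.11.15, numpy 2.4.6, pandas 2.3.3 and matplotlib 3.10.9 were used.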

Additional observations from a re-analysis of the deposited data

How the results depend on the processing

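Of the recomputed counts and medians over the cilia genes, 124 stayed within 1.5 times (counts) or 0.2 (log2 medians) of the values reported and 31 moved further. The remaining 1 reversed, a label for a median that changed sign and was at least 0.2 from 0 as reported. The axoneme median for ECRS_KO against ECRS_WT also changed sign, from -0.13 to 0.04 under median scaling, and is counted among the 124. With limma's default background inference, the counts at 2-fold were 0 higher and 0 lower (ECRS_WT against control_WT), 0 higher and 1 lower (ECRS_KO against ECRS_WT) and 0 higher and 1 lower (ECRS_KO against control_WT). The medians of all measured members there were -0.089 for ECRS_WT against control_WT and -0.050 for ECRS_KO against control_WT, with -0.28 for axoneme genes in that last comparison. Median scaling moved the median of all genes from -0.07, -0.03 and -0.07 to 0.10, 0.13 and 0.25 in the same order of comparisons. It gave axoneme and transport medians of -0.14 and -0.0054 for ECRS_WT against control_WT, 2 genes higher and a transport median of 0.53 for ECRS_KO against ECRS_WT, and 6 genes higher, 1 lower, and medians of 0.013 (all members, reversed), -0.33 (axoneme) and 0.46 (transport) for ECRS_KO against control_WT. Over all genes, the counts higher and lower at 2-fold were 330 and 123, 421 and 210, and 628 and 514 as reported. They were 108 and 41, 144 and 81, and 213 and 148 with limma's default inference, 128 and 42, 212 and 95, and 295 and 221 with the authors' values, and 513 and 43, 563 and 126, and 1278 and 129 under median scaling. With probes detected on all 3 arrays and with the authors' normalized values, 0 cilia genes were 2-fold higher in any comparison. The first of these settings leaves out Ift74 and Rfx3, which were not detected on every array. The authors' values gave an axoneme median of -0.35 for ECRS_KO against control_WT. The mean over all probes gave 0 cilia genes higher for ECRS_WT against control_WT, and 1 higher and an axoneme median of -0.32 for ECRS_KO against control_WT. At 1.5-fold the counts of cilia genes were 6 lower, 3 higher and 4 lower, and 6 higher and 10 lower in the 3 comparisons. Why these values moved was not tested. The lowest of the authors' values on each array was 40.3 to 42.8, and its part in the smaller folds was not tested either. With no background correction (values below 0 set to 0), a shift on probes detected on all 3 arrays, a detection p-value under 0.05, no detection filter or platform symbols, the counts and medians stayed within these limits. No paired analysis was possible because each group has 1 array, and for the same reason no replicate could be left out.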
